A study of Homo sapiens with 6 samples.

Results

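The genes described here are the solute carrier (SLC and SLCO) genes that 8505C cells express, apart from a few studied for other reasons. They were chosen by name (protein-coding genes whose symbol starts with SLC, a family number and A, or with SLCO and a number) and by level (a mean of at least 1 FPKM, a level scaled by transcript length and library size, over 6 libraries). The magnesium carriers SLC41A1, SLC41A2 and SLC41A3, the iodide carrier SLC5A5, and SLC40A1, SLC11A2, SLC7A11 and SLC2A1 were left out by name. This left 140 of 302 protein-coding SLC and SLCO genes, with 8 left out by name and 154 under the minimum. RNA came from 8505C, an established anaplastic thyroid cancer (ATC) cell line, grown in RPMI-1640 with fetal bovine serum and labelled 24 h. One group of 3 libraries, labelled siCtrl with the genotype WT, received control siRNA, and the other group of 3, labelled siNUF2 with the genotype NUF2 knockdown, received siRNA against NUF2, a subunit of the kinetochore complex that ties chromosomes to the spindle. The knockdown rests on a single siRNA sequence in a single cell line, and the labels do not say whether replicates were separate cultures, so the p-values measure only the spread between these libraries. In bulk RNA, fewer cells of a kind and less RNA per cell cannot be told apart.

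Solute carriers are membrane proteins that move small molecules across the plasma membrane or the membranes of organelles, down a gradient or coupled to an ion. Those of the plasma membrane decide which amino acids, sugars, ions and vitamins a cell takes up and which waste, such as lactate, it releases. The SLC25 family does the same for the inner membrane of mitochondria, and the SLC30 and SLC39 families set zinc levels in the cytosol and in organelles from opposite sides. Thyroid cells are known for the iodide carrier SLC5A5, and fast-growing tumour cells for high levels of glutamine, glucose and lactate carriers.

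Between 61257859 and 69755291 counts lay on genes in each library, and the 140 SLC genes held from 0.89% to 0.969% of them. NUF2 was at 14.8, 14.5 and 12.2 FPKM in the siCtrl libraries and at 1.53, 2.05 and 1.56 FPKM in the siNUF2 libraries (log2 fold change -2.99, SE 0.17, adjusted p = 5.1e-04). Of the thyroid markers, the transcription factor NKX2-1 was present at 14.6 to 21.5 FPKM and PAX8 at 0.379 to 0.774 FPKM, while TG, FOXE1 and SLC5A5 did not exceed 0.0281 FPKM in any library. The keratins KRT8 and KRT18 reached 72.0 to 205 FPKM, but EPCAM and CDH1 stayed at or under 0.243 FPKM. The mesenchymal markers VIM (452 to 521 FPKM), FN1 (22.2 to 36.5 FPKM) and CDH2 (8.51 to 10.2 FPKM) were all present. Leukocyte PTPRC reached at most 0.518 FPKM, endothelial PECAM1 0.403 FPKM, and the fibroblast genes COL1A1, COL1A2 and DCN 1.63, 1.15 and 0.326 FPKM.

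Among the 154 SLC genes under the minimum, 101 had a mean above 0 but under 0.1 FPKM and 53 a mean from 0.1 to under 1 FPKM. Just under it lay SLC29A2 (0.931 FPKM), SLC22A18 (0.933 FPKM) and SLC25A42 (0.967 FPKM). Just above it lay SLC9A5 (1.03 FPKM), SLC46A3 (1.04 FPKM) and SLC45A4 (1.07 FPKM). The minimum used the mean over both groups, so it treats both directions of change alike. A gene near it can still pass through 1 group alone. Group means reached 1 FPKM only in siCtrl for SLC30A4 (1.40 FPKM in siCtrl and 0.852 FPKM in siNUF2) and SLC9A5 (1.10 and 0.963 FPKM). For SLC46A3 this was so only in siNUF2 (0.987 and 1.10 FPKM).

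The 140 genes were grouped into 15 classes by what they carry. Mitochondrial carriers formed the largest class with 36 genes, followed by carriers of trace metals and heme with 20, amino acids and peptides with 17, inorganic ions and pH with 14, and sugars and polyols with 10. In 5 cases the gene matched only by name and is not a carrier (SLC9A3R1, SLC9A3R2, SLC2A4RG, SLC4A1AP and SLC7A6OS). Levels per length were uneven: 37 of the 140 genes had a mean of at least 10 FPKM, 6 of at least 50 FPKM and 2 of at least 100 FPKM, and the 10 most abundant held 48.5% of the summed FPKM. The highest level was that of SLC25A5, an exchanger of ADP for ATP across the inner mitochondrial membrane, with 309 ± 22.9 FPKM (SD, n = 3) in siCtrl and 352 ± 20.9 FPKM (SD, n = 3) in siNUF2 cells. Summed over all 140 genes, the level was 1862 ± 86.4 FPKM in siCtrl and 1914 ± 83.5 FPKM in siNUF2 cells (SD, n = 3 each), a difference within the spread between libraries.

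**Figure D1:**
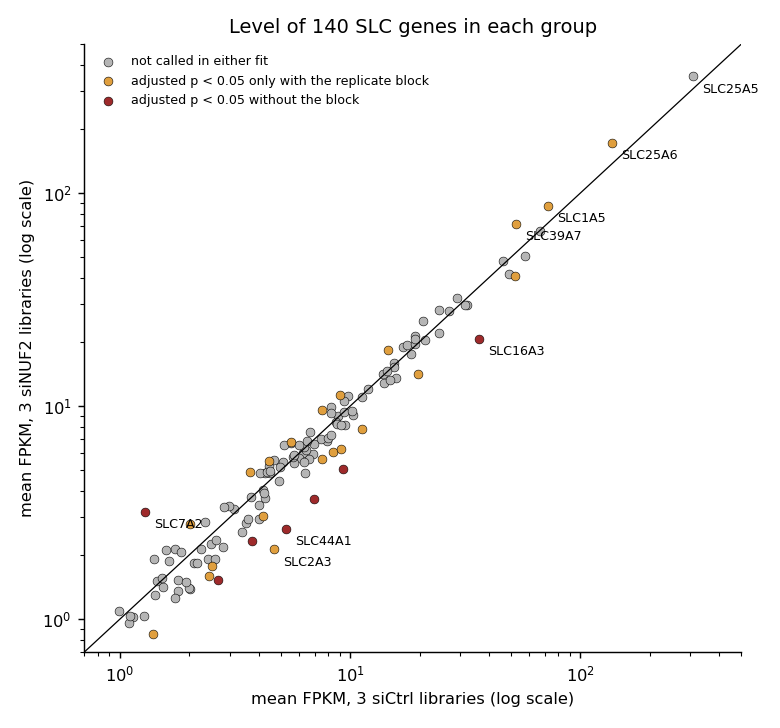
Mean FPKM of each of the 140 SLC genes over the 3 siNUF2 libraries (vertical, log scale) against the mean over the 3 siCtrl libraries (horizontal, log scale), with the line of equal level. Most points lie near the line from 1 FPKM up to the 309 and 352 FPKM of SLC25A5. SLC7A2 stands above it, and SLC44A1, SLC2A3 and SLC16A3 stand below it.

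SLC carrier expression in siNUF2 cells stayed close to that in siCtrl cells for most genes, and 7 of the 140 genes (5%) passed an adjusted p of 0.05 in the quasi-likelihood test of edgeR, adjusted over all genes tested by the Benjamini-Hochberg method. Of the 11725 genes tested, 3.99% were called. The single gene called higher was SLC7A2, a carrier of arginine, lysine and ornithine. The 6 genes called lower were SLC25A24 (a mitochondrial carrier of ATP-magnesium and phosphate), SLC25A29 (a mitochondrial carrier of basic amino acids), SLC44A1 (a choline carrier), SLC12A2 (the sodium, potassium and chloride cotransporter NKCC1), SLC30A7 (a zinc carrier of the Golgi, ZnT7) and SLC16A3 (the lactate carrier MCT4). The share called higher was 0.714% against 1.53% of all genes, and the share called lower was 4.29% against 2.46% of all genes.

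The replicate numbers in the labels were taken to pair the libraries, as set out with the processing. A fit with the number as a block called 28 of the 140 genes (20%), 11 higher and 17 lower. That fit called 14.5% of all genes, 6.64% higher and 7.91% lower. Of the SLC genes, 7.86% were called higher with the block, close to the share of all genes, and 12.1% lower, above that share. Without the block, the share called higher was below that of all genes but rested on 1 gene. All 7 genes called without the block were among the 28. With no FPKM filter, the adjusted p of 5 of the 7 went past 0.05: 0.0519 for SLC44A1, 0.0623 for SLC12A2, 0.0987 for SLC30A7, 0.116 for SLC16A3 and 0.127 for SLC25A29. DESeq2 called 14 of the SLC genes (10%), 2 higher and 12 lower, against 8.29% of all genes, 3.48% higher and 4.81% lower.

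Changes of the SLC genes were small in both directions. The median log2 fold change was -0.03 over the 140 genes and 0.01 over all genes tested, and the median absolute log2 fold change was 0.19 and 0.17. The log2 fold change was below 0 in 76 genes and above 0 in 64. It exceeded 0.5 in size in 13 of the 140, 1 higher and 12 lower, against 11.5% of all genes in both directions together. The share of all genes in each direction was not counted at this size, so the split has no background. The log2 fold change exceeded 1 in size in 2 of the 140, SLC7A2 and the glucose carrier SLC2A3, against 1.75% of all genes. The TMM-scaled counts of the groups did not overlap in 36 of the 140 genes, 14 higher and 22 lower, against 24.1% of all genes, 12.1% higher and 12% lower.

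**Figure D2:**
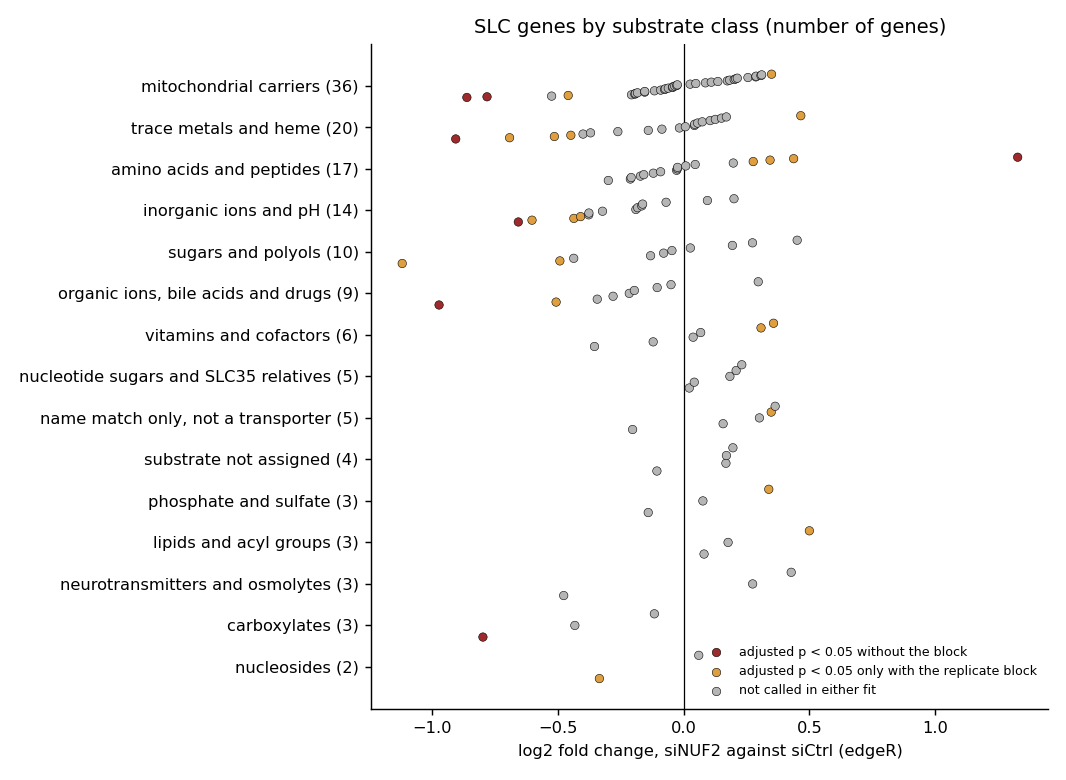
Log2 fold change of siNUF2 against siCtrl (horizontal, edgeR) for each of the 140 SLC genes, in rows by substrate class with the number of genes in brackets. Points are coloured by whether the gene passed in edgeR without the replicate block (7 genes), only with it (21 genes) or in neither fit. Inorganic ion carriers lie mostly left of 0 (12 of 14), and the amino acid row holds the single gene far to the right, SLC7A2.

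Amino acid and peptide carriers included the single gene called higher. SLC7A2 (chr8:17497088-17570566, plus strand, GRCh38) was at 1.26, 1.39 and 1.19 FPKM in siCtrl and at 3.93, 2.56 and 3.05 FPKM in siNUF2 libraries. Every siNUF2 library was above every siCtrl library. The mean was 1.28 ± 0.102 FPKM in siCtrl and 3.18 ± 0.692 FPKM in siNUF2 cells (SD, n = 3 each), and the log2 fold change was 1.33 (SE 0.18, adjusted p = 0.00845). It rested on 700 to 2402 counts per library and passed in each of the 6 fits that left out 1 library (adjusted p from 0.0169 to 0.0419). The level remained low: SLC7A2 ranked 112 of the 140 genes by mean FPKM.

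Its relative SLC7A1, the main carrier of arginine in most growing cells, was at 8.81, 9.69 and 8.54 FPKM in siCtrl and 12.2, 11.2 and 10.5 FPKM in siNUF2 libraries. These values did not overlap between the groups, but the gene passed only with the replicate block (log2 fold change 0.34, adjusted p = 0.111 without and 0.0256 with it). SLC1A5, which takes up glutamine and other neutral amino acids and was the most abundant carrier of its class, was at 72.6 ± 7.26 FPKM in siCtrl and 86.7 ± 10.6 FPKM in siNUF2 cells (SD, n = 3 each). Its groups overlapped and it, too, passed only with the block (log2 fold change 0.28, adjusted p = 0.277 without and 0.0275 with it). SLC38A7, a glutamine carrier of lysosomes, was the fourth gene of the class to pass with the block (log2 fold change 0.44, adjusted p = 0.0435). SLC7A5 and SLC3A2, the light and heavy chain of the leucine exchanger LAT1, had log2 fold changes of -0.21 and -0.16 and did not pass in either fit (adjusted p = 0.493 and 0.611 without the block). Over the class, 1 of 17 genes was called higher and 0 lower, 4 higher and 0 lower with the block, and the median log2 fold change was -0.03.

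The carboxylate class holds the monocarboxylate carriers, through which glycolytic cells release lactate. SLC16A3 (chr17:82228397-82261129, plus strand) was at 35.7, 30.4 and 42.9 FPKM in siCtrl and at 18.6, 18.4 and 24.7 FPKM in siNUF2 libraries. The highest siNUF2 library lay below the lowest siCtrl library, and library 3 was the highest in both groups. From 36.3 ± 6.28 FPKM to 20.6 ± 3.58 FPKM (SD, n = 3 each), 56.7% of the control level was left (log2 fold change -0.80, SE 0.16, adjusted p = 0.0388, and 0.00108 with the block). Without siNUF2 library 3 the adjusted p was 0.033, and in the other 5 fits that left out 1 library it was 0.05 to 0.15, no longer past the threshold. The locus overlaps CSNK1D on the opposite strand over 22107 bp, and since no source used here gives a strand setting, reads of the pair may be mixed. For CSNK1D itself the log2 fold change was -0.10 (adjusted p = 0.647).

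SLC16A1, the widespread lactate and pyruvate carrier MCT1, was at 24.3 ± 0.738 FPKM in siCtrl and 22.1 ± 2.72 FPKM in siNUF2 cells (SD, n = 3 each) and did not pass (log2 fold change -0.12, adjusted p = 0.635). BSG, the chaperone that brings MCT1 and MCT4 to the cell surface, was at 126 FPKM in both groups (log2 fold change 0.03, adjusted p = 0.933).

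In the sugar and polyol class none of 10 genes passed in edgeR without the block (3 at an unadjusted p under 0.05, and 1 in DESeq2), though it held the lowest fold change of all 140 genes, that of SLC2A3, which is the gene DESeq2 called. SLC2A3 (GLUT3), a glucose carrier of high affinity, was at 3.69, 3.67 and 6.71 FPKM in siCtrl and at 1.69, 1.74 and 2.95 FPKM in siNUF2 libraries. The groups did not overlap, but library 3 was well above its fellows in both. The mean went from 4.69 ± 1.75 to 2.12 ± 0.714 FPKM (SD, n = 3 each), a log2 fold change of -1.12 (SE 0.31) that did not pass without the block (adjusted p = 0.0982). Within the numbers the ratios were close together, at -1.12, -1.04 and -1.17 on the log2 scale, and the adjusted p with the block was 0.00144. In DESeq2, without a block, it was 0.00159. The near-identical SLC2A14 held 0 to 53 counts per library (mean 0.0535 FPKM), and the counting could split reads between the pair. SLC5A3, which takes up myo-inositol, was the other gene of the class to pass with the block (log2 fold change -0.49, adjusted p = 0.0229, and 0.225 without it). The most abundant gene of the class, the sugar carrier SLC50A1, was at 8.22 ± 1.28 and 9.27 ± 0.988 FPKM (SD, n = 3 each) and did not pass (log2 fold change 0.19).

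Of the 14 carriers of inorganic ions, 12 had a log2 fold change below 0, where 48.9% of all genes tested did. SLC12A2 (chr5:128083766-128189677, plus strand), which loads cells with chloride and helps them regain volume, was at 3.88, 3.53 and 3.77 FPKM in siCtrl and at 2.1, 2.38 and 2.51 FPKM in siNUF2 libraries. The groups were well apart, with all siCtrl libraries within 3.53 to 3.88 FPKM. The level fell to 62.4% of the control, from 3.73 ± 0.178 to 2.33 ± 0.212 FPKM (SD, n = 3 each; log2 fold change -0.66, SE 0.12, adjusted p = 0.0242). This call was lost in each of the 6 fits that left out 1 library, with adjusted p from 0.0506 to 0.0945 and log2 fold changes from -0.71 to -0.58. Those fits had no block. With the block and all 6 libraries, the adjusted p of SLC12A2 was 0.00834.

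Over the ion class, 1 of 14 genes was called lower and 0 higher, 4 lower and 0 higher with the block. The median log2 fold change was -0.26. The genes added by the block were SLC26A11 (log2 fold change -0.60, adjusted p = 0.0396, and 0.0186 in DESeq2), the chloride and bicarbonate exchanger SLC26A6 (-0.41, adjusted p = 0.0334) and SLC9A7, a proton exchanger of the trans-Golgi network (-0.44, adjusted p = 0.022). SLC4A2, the chloride and bicarbonate exchanger AE2 and the most abundant of the class, was at 10.3 ± 0.525 and 9.08 ± 0.463 FPKM (SD, n = 3 each; log2 fold change -0.16, adjusted p = 0.404). Their summed level was 62.7 ± 2.04 FPKM in siCtrl and 52.7 ± 1.30 FPKM in siNUF2 cells (SD, n = 3 each), and the groups did not overlap (60.7 to 64.8 and 51.2 to 53.7 FPKM). The sums of the carboxylate class did not overlap either and were lower (57.0 to 71.5 FPKM in siCtrl and 40.1 to 50.1 FPKM in siNUF2). Those of mitochondrial carriers (727 to 816 and 823 to 893 FPKM) and of genes matched by name only (47.5 to 50.9 and 55.1 to 59.1 FPKM) were apart and higher. The sums of the other classes overlapped. No test was run on these sums.

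Among zinc carriers of organelles, 1 was called lower, and an abundant one was higher with the block. SLC30A7 (chr1:100896076-100981757, plus strand), which brings zinc into the Golgi, was at 6.28, 6.96 and 7.62 FPKM in siCtrl and at 3.39, 2.92 and 4.67 FPKM in siNUF2 libraries. The groups did not overlap and library 3 was the highest of each. The mean fell from 6.95 ± 0.673 to 3.66 ± 0.906 FPKM (SD, n = 3 each), or 52.6% of the control (log2 fold change -0.91, SE 0.18, adjusted p = 0.0309). It passed without siNUF2 library 3 (adjusted p = 0.015) but not in the other 5 fits that left out 1 library (adjusted p from 0.07 to 0.13).

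SLC39A7 (ZIP7), which releases zinc from the endoplasmic reticulum and was the most abundant zinc carrier, was at 52.4, 44.5 and 60.5 FPKM in siCtrl and at 74.6, 68.2 and 71.8 FPKM in siNUF2 libraries. All siNUF2 libraries were above all siCtrl libraries, but in edgeR the gene passed only with the block (log2 fold change 0.47, SE 0.12, adjusted p = 0.0886 without and 0.0129 with it), and it passed in DESeq2 (adjusted p = 0.0144). It overlaps RXRB on the opposite strand over 221 bp, and RXRB was itself higher (log2 fold change 0.50, adjusted p = 0.0362). Lower in edgeR with the block but not without it were SLC39A9 (ZIP9; -0.51, adjusted p = 0.0143), SLC30A9 (ZnT9; -0.45, adjusted p = 0.0178) and SLC30A4 (ZnT4; -0.69, adjusted p = 0.022). DESeq2, fitted without a block, called these 3 genes lower as well (adjusted p = 0.0158, 0.0253 and 0.00398). SLC39A9 overlaps the abundant gene ERH on the opposite strand over 285 bp (ERH log2 fold change -0.33, adjusted p = 0.0868). Of the 20 genes for trace metals and heme, 1 was called lower and 0 higher, 4 lower and 1 higher with the block, DESeq2 called 5, and the log2 fold changes were split evenly, 10 below and 10 above 0.

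Mitochondrial carriers held the most abundant SLC genes and 2 of the 6 genes called lower. SLC25A24 (chr1:108134043-108200343, minus strand), which exchanges ATP-magnesium for phosphate under the control of calcium, was at 8.62, 10.3 and 9.02 FPKM in siCtrl and at 4.97, 4.6 and 5.57 FPKM in siNUF2 libraries. The lowest siCtrl library was far above the highest siNUF2 library. The level fell to 54.2% of the control, from 9.30 ± 0.865 to 5.05 ± 0.491 FPKM (SD, n = 3 each; log2 fold change -0.86, SE 0.11, adjusted p = 0.0084), and it passed in each of the 6 fits that left out 1 library (adjusted p from 0.02 to 0.0496). SLC25A24 and SLC7A2 were the only genes of the 7 that passed in all of those fits.

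SLC25A29 (chr14:100291116-100306547, minus strand), which carries arginine, lysine and other basic amino acids into mitochondria, was at 2.55, 2.36 and 3.12 FPKM in siCtrl and at 1.38, 1.45 and 1.76 FPKM in siNUF2 libraries. The groups did not overlap, with 57.2% of the control level left (log2 fold change -0.78, SE 0.17, adjusted p = 0.0455). It did not pass in any of the 6 fits that left out 1 library (adjusted p from 0.0616 to 0.166), nor in limma on log2(FPKM + 1), where adjusted p = 0.0646. The ADP and ATP exchangers SLC25A5 and SLC25A6 had log2 fold changes of 0.21 and 0.35. SLC25A6 passed with the block (adjusted p = 0.0366) and SLC25A5 in neither fit (adjusted p = 0.30 without and 0.0571 with the block). Their coding sequences are close to those of SLC25A4 (4.21 ± 0.701 and 3.89 ± 0.623 FPKM; SD, n = 3 each) and of processed copies, so the split of reads between them is uncertain. Over the class, 2 of 36 genes were called lower and 0 higher, 3 lower and 1 higher with the block, and the median log2 fold change was -0.03. The third gene lower with the block was the folate and flavin carrier SLC25A32 (-0.46, adjusted p = 0.0232).

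Among carriers of organic ions, bile acids and drugs, SLC44A1 (chr9:105244622-105397346, plus strand), a choline carrier of the plasma and mitochondrial membranes, was at 4.61, 5.92 and 5.25 FPKM in siCtrl and at 2.16, 2.64 and 3.13 FPKM in siNUF2 libraries. The groups did not overlap and 50.2% of the control level was left, the lowest share among the 7 genes called. The mean fell from 5.26 ± 0.658 to 2.64 ± 0.486 FPKM (SD, n = 3 each; log2 fold change -0.97, SE 0.16, adjusted p = 0.017). It passed without siCtrl library 1 and without siNUF2 library 3, but not without siCtrl library 2 or 3 (adjusted p = 0.0651 and 0.0584) or siNUF2 library 1 or 2 (adjusted p = 0.0606 and 0.0572). Its relative SLC44A2 was at 20.7 ± 3.50 and 25.1 ± 6.10 FPKM (SD, n = 3 each) and did not pass (log2 fold change 0.30, adjusted p = 0.485). SLCO4A1, which takes up organic anions and thyroid hormone, was at 11.4, 9.55 and 12.8 FPKM in siCtrl and 7.78, 6.56 and 9.11 FPKM in siNUF2 libraries. Its 3 ratios within a number were -0.54, -0.51 and -0.48 on the log2 scale, and in edgeR it passed with the block (adjusted p = 0.00837) but not without it (adjusted p = 0.143). DESeq2 called it without a block (adjusted p = 0.0444). Of the 9 genes in this class, 8 had a log2 fold change below 0.

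**Figure D3:**
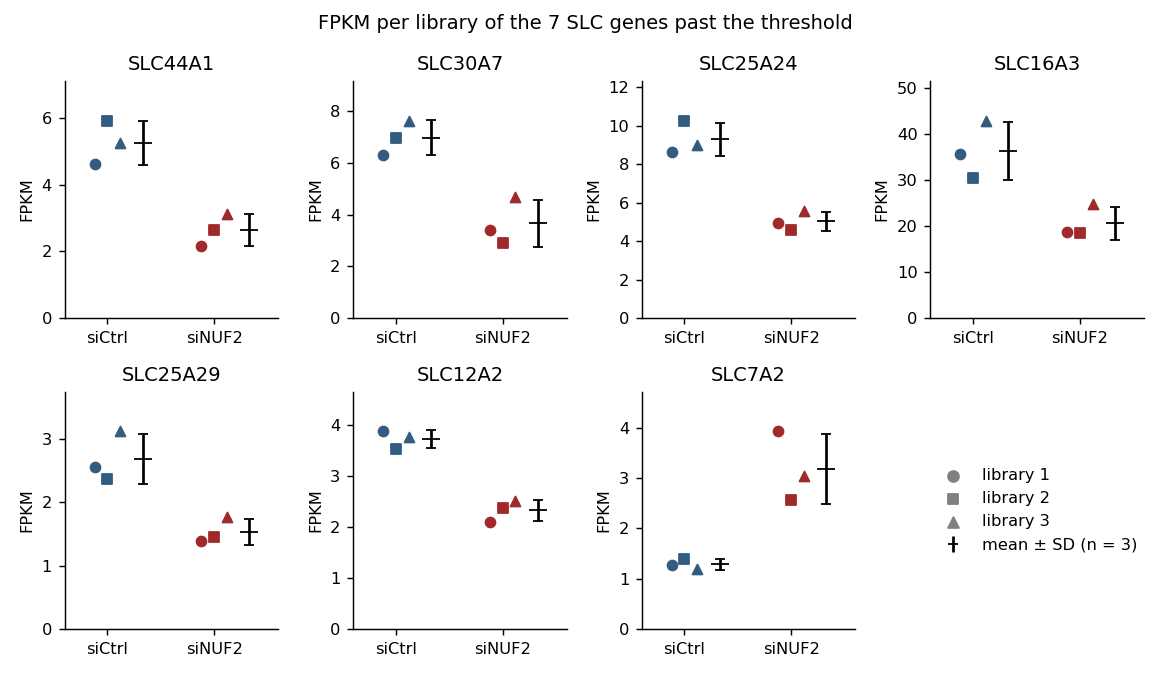
FPKM of the 7 called SLC genes in each library (vertical axes from 0, 1 panel a gene), with siCtrl in blue, siNUF2 in red, a symbol for each library number, and the mean ± SD (n = 3) beside the points. In every panel the siCtrl and siNUF2 points are apart, above for siNUF2 in SLC7A2 (2.56 to 3.93 FPKM against 1.19 to 1.39 FPKM) and below in the other 6.

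No gene passed in edgeR without the block in the remaining classes. Together with the sugars they hold 41 genes, of which 7 had an unadjusted p under 0.05, 8 passed with the block and 1 passed in DESeq2. The purine nucleobase carrier SLC43A3 was at 54.5, 46.2 and 55.0 FPKM in siCtrl and 39.9, 37.3 and 44.5 FPKM in siNUF2 libraries, and passed with the block (log2 fold change -0.34, adjusted p = 0.159 without and 0.0198 with it). SLC33A1, which carries acetyl-CoA into the endoplasmic reticulum, was at 1.99, 1.78 and 2.25 FPKM in siCtrl and 2.84, 2.37 and 3.21 FPKM in siNUF2 libraries, higher with the block alone (0.50, adjusted p = 0.137 and 0.0188). Neither gene's groups overlapped. Of 6 vitamin and cofactor carriers, the biotin and pantothenate carrier SLC5A6 (0.36, adjusted p = 0.0333) and the folate carrier SLC19A1 (0.31, adjusted p = 0.0432) passed as higher with the block. The sulfate carrier SLC26A2 did so in the phosphate and sulfate class (0.34, adjusted p = 0.0468).

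The nucleotide sugar class, the neurotransmitter and osmolyte class and the genes with no substrate assigned showed no call in either fit or in DESeq2, and 0 unadjusted p-values under 0.05. The nucleotide sugar class (SLC35A1 to SLC35A5) had 5 log2 fold changes above 0, from 0.02 to 0.23, the highest that of SLC35A4 (24.3 ± 6.09 and 28.2 ± 4.98 FPKM; SD, n = 3 each). In the neurotransmitter and osmolyte class, the taurine carrier SLC6A6 (0.27, adjusted p = 0.373) and the glycine carrier SLC6A9 (-0.48, adjusted p = 0.289) did not pass. Among 4 genes with no substrate assigned, the most abundant, SLC10A3, was at 14.0 ± 1.10 and 12.8 ± 1.46 FPKM (SD, n = 3 each), and SLC66A3 had the largest fold change (log2 0.20, adjusted p = 0.831).

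The most abundant genes of the last classes also stayed near the control level without passing. They were the fatty acid carrier SLC27A4 (17.0 ± 3.10 and 19.0 ± 4.78 FPKM), the phosphate carrier SLC20A1 (26.7 ± 1.49 and 27.8 ± 1.24 FPKM), the riboflavin carrier SLC52A2 (14.5 ± 4.15 and 14.6 ± 3.24 FPKM) and the scaffold gene SLC9A3R1 (17.6 ± 0.643 and 19.4 ± 0.534 FPKM; SD, n = 3 each, siCtrl first). SLC52A2 overlaps FBXL6 on the opposite strand over 3946 bp. SLC7A6OS, which overlaps SLC7A6 on the opposite strand over 17321 bp, was at 3.53, 3.13 and 8.84 FPKM in siCtrl and 6.02, 4.11 and 9.57 FPKM in siNUF2 libraries, with library 3 the highest in both groups (log2 fold change 0.36, adjusted p = 0.733). SLC2A4RG, the regulator of the SLC2A4 gene, was the gene matched by name only that passed with the block (0.35, adjusted p = 0.0405).

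Libraries of the same number deviated together in the SLC genes. Over the 140 genes, the deviations of a siCtrl and a siNUF2 library from their group means had correlations of 0.505, 0.537 and 0.750 for libraries of the same number and between -0.514 and -0.0683 for libraries of different numbers, as a description, since these deviations sum to 0 within a group. The range between the 3 numbers, averaged over both groups on the log2 scale, had a median of 0.31 over the SLC genes and 0.28 over all genes, and was above 0.5 in 34 of the 140. The choline carrier relative SLC44A5 had the widest range (2.05), with 1.5, 1.81 and 0.518 FPKM in siCtrl and 0.959, 1.78 and 0.361 FPKM in siNUF2 libraries, followed by SLC7A6OS (1.35). All 3 ratios within a number pointed the same way in 80 of the 140 genes, 35 higher and 45 lower, against 51.8% of all genes, 26.5% higher and 25.3% lower.

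**Figure D4:**
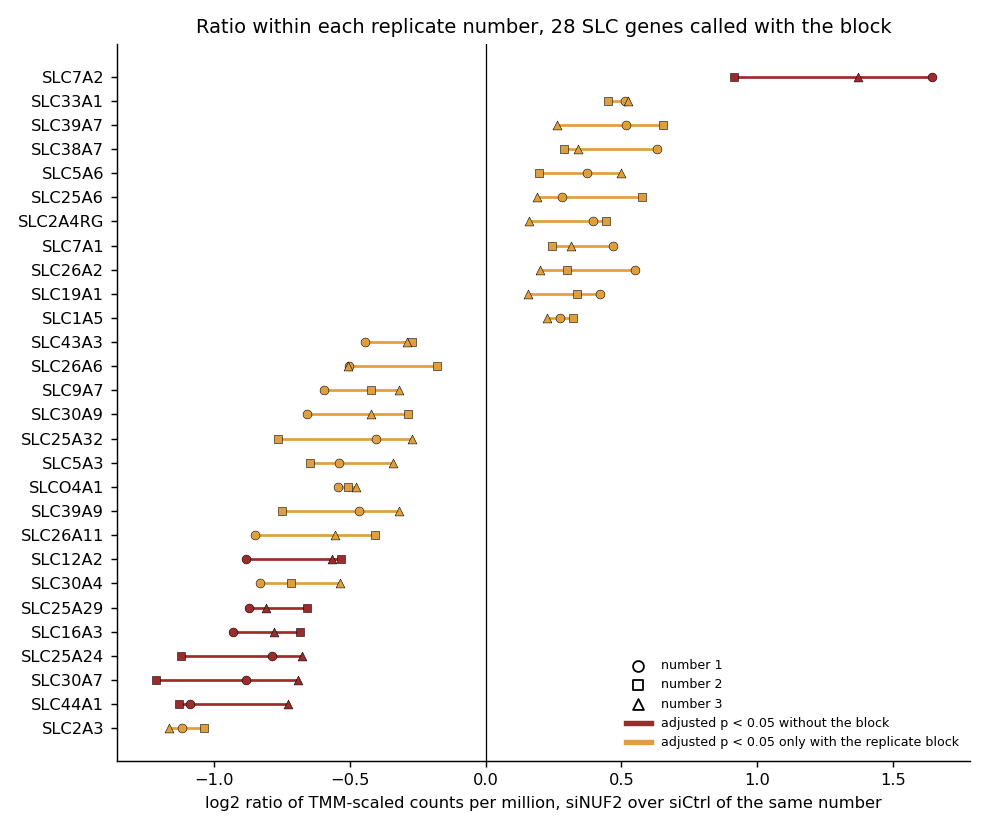
Log2 ratio of TMM-scaled counts, siNUF2 over the siCtrl library of the same number (horizontal), for the 28 SLC genes called with the replicate block; symbols mark the number and lines span the 3 ratios. All points of a gene lie on the same side of 0. The block favours genes whose ratios lie close together, such as SLC2A3 at -1.17 to -1.04. The ratios of SLC7A2, called with and without the block, lie further apart at 0.92 to 1.64.

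An siRNA can lower mRNAs other than its target through its seed, positions 2 to 8 of the guide strand, when a 3′ UTR holds the complementary bases. The seed of the NUF2 siRNA pairs with the 7 bases TATGGAA. The longest annotated 3′ UTR of at least 50 nt of each gene (GENCODE release 44) was searched on the transcript strand for TATGGAA and for its last 6 bases, ATGGAA, which every TATGGAA contains. The sites below are those of the called SLC genes, shown because 4 of the 6 genes called lower held at least 1, with TATGGAA in capitals and 10 bases on each side, 5′ to 3′ on the strand of the gene (GRCh38).
SLC25A24, chr1:108135053-108135079, minus strand, exon 9 of 9: tcgtaaaaatTATGGAAatgaataatt
SLC44A1, chr9:105389061-105389087, plus strand, exon 16 of 16: agccgacggtTATGGAAacccattgac
SLC44A1, chr9:105390532-105390558, plus strand, exon 16 of 16: agatcggtatTATGGAAatgcatacaa
SLC44A1, chr9:105392017-105392043, plus strand, exon 16 of 16: tcttccataaTATGGAAgagaaaagtt
SLC30A7, chr1:100978348-100978374, plus strand, exon 11 of 11: acctacctatTATGGAAtaatcagttt
SLC30A7, chr1:100978785-100978811, plus strand, exon 11 of 11: tcatattcttTATGGAAgatgcaatta
SLC30A7, chr1:100980852-100980878, plus strand, exon 11 of 11: cctttgttttTATGGAAaattgccata
SLC12A2, chr5:128189477-128189503, plus strand, exon 27 of 27: tttttaagacTATGGAAataatttaaa

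SLC16A3 held ATGGAA once and TATGGAA nowhere in its 1166 nt, and SLC25A29 and SLC7A2 held neither in 1595 and 5427 nt. In all, 24 of the 140 SLC genes (17.1%) held TATGGAA, against 18.3% of the 10234 genes tested that have such a 3′ UTR. The median log2 fold change was -0.31 over the 24 genes and 0.01 over the 116 without, against -0.09 and 0.02 over all genes with and without it. Of the 24, 19 had a log2 fold change below 0, as did 1201 of the 1875 genes with a site among all genes. The 5 with 2 or more sites (SLC5A3 with 4, SLC44A1 and SLC30A7 with 3 each, SLC25A40 and SLC38A1 with 2 each) were all below 0, with a median of -0.49. Of these, SLC25A40 (-0.04) and SLC38A1 (-0.09) were near 0. Among all genes with 2 or more sites, 256 of 358 were below 0, with a median of -0.15.

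Of the SLC genes called lower, 4 of 6 (66.7%) held TATGGAA, close to the 62% of all genes called lower. With the block these shares were 8 of 17 (47.1%) and 40.5%. None of the 11 SLC genes higher with the block held it, against 13.5% of all genes higher with the block. The SLC genes with a site also had longer 3′ UTRs, a median of 3717 nt against 1692.5 nt, and 57 of the 116 without a site were below 0 as well. ATGGAA, counted whether or not it lay within TATGGAA, was found in 47.1% of the SLC genes and 51% of all genes. It was in 5 of the 6 SLC genes called lower and 0 of the 1 called higher. Among all genes with such a 3′ UTR, 264 of 284 called lower and 86 of 174 called higher held it. With the block, it was in 14 of 17 lower and 3 of 11 higher SLC genes. The counts for all genes were then 711 of 899 and 320 of 727. The part of these sites in the changes of level was not tested.

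**Figure D5:**
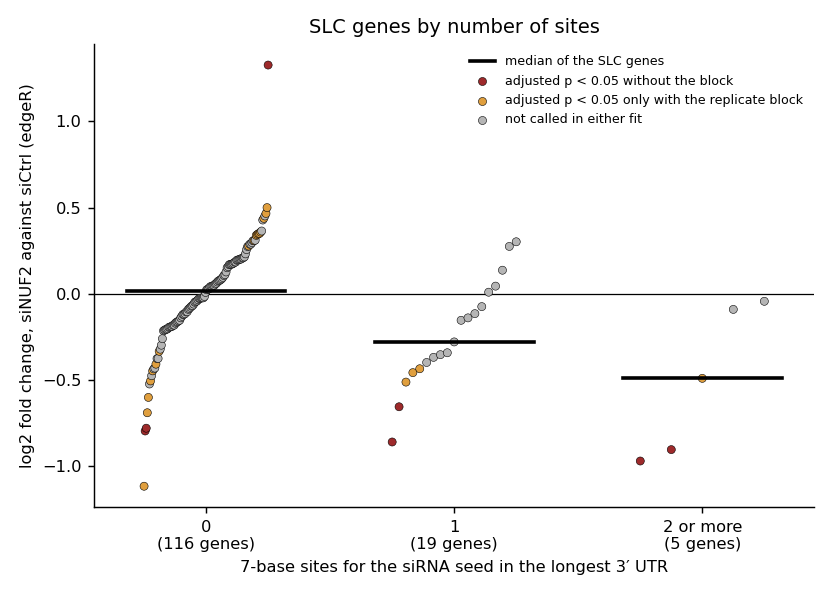
Log2 fold change of siNUF2 against siCtrl (vertical, edgeR) of the 140 SLC genes by the number of TATGGAA sites in the longest 3′ UTR (horizontal, 0, 1, and 2 or more), with bars at the medians. The 116 genes with no site centre on 0.01, and the 5 genes with 2 or more sites have a median of -0.49, against -0.15 over all genes tested with 2 or more. SLC16A3, SLC25A29 and SLC2A3, all among the lowest, stand in the group with no TATGGAA. Of these, SLC16A3 held 1 and SLC2A3 held 2 of the shorter ATGGAA, which is not drawn.

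Other genes of membrane transport were counted in the same fit. Of all 11725 genes tested, it called 3.99%, the fit with the block 14.5% and DESeq2 8.29%. An unadjusted p under 0.05 was found for 18.2% of them. No ABC transporter passed (13 tested of 40 in the table, median log2 fold change -0.01), and 0 of 15 tested V-ATPase subunits did (median -0.06). With the block, each list had 0 higher and 2 lower. Each had 2 genes with an unadjusted p under 0.05, and DESeq2 called 2 ABC transporters and 0 V-ATPase subunits. Of 18 tested P-type ATPases, ATP2B4, a calcium pump of the plasma membrane, was called lower (6.91 ± 1.24 FPKM in siCtrl and 3.61 ± 0.0848 FPKM in siNUF2 cells, SD, n = 3 each; log2 fold change -0.91, adjusted p = 0.0117). Of 14 tested MFSD genes, relatives of the solute carriers, MFSD6 (log2 fold change -1.02, adjusted p = 0.0207) and MFSD9 (-0.87, adjusted p = 0.0449) were called lower and 0 higher. With the block both lists had 3 genes lower and 1 higher, the higher ones being ATP11A (adjusted p = 0.0101) and MFSD14A (adjusted p = 0.0479). An unadjusted p under 0.05 was found for 4 P-type ATPases and 3 MFSD genes, and DESeq2 called 2 and 3. In their longest 3′ UTRs, ATP2B4 and MFSD6 held TATGGAA once each and MFSD9 held 2 sites. Some genes not called, such as ABCC4 and ATP11B, also held 1 site, and 18.3% of all genes with such a 3′ UTR held it. The part of these sites was not tested. The mitochondrial pyruvate carrier subunits MPC1 and MPC2 had log2 fold changes of -0.63 and -0.02 and did not pass (adjusted p = 0.239 and 0.954), nor did the chaperones EMB and NPTN (0.17 and 0.18). The block and DESeq2 called 0 of these genes, and MPC1 alone had an unadjusted p under 0.05.

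Of the 8 SLC genes left out by name, 6 were tested. SLC7A11, the light chain of the cystine and glutamate exchanger, was at 5.23 ± 0.685 FPKM in siCtrl and 2.55 ± 0.454 FPKM in siNUF2 cells (SD, n = 3 each) and was called lower (log2 fold change -1.02, adjusted p = 0.0158). SLC7A11 held 2 TATGGAA sites in its longest 3′ UTR. SLC3A2, the heavy chain that SLC7A11 shares with SLC7A5, is given above with a log2 fold change of -0.16. The glucose carrier SLC2A1 (GLUT1) was at 16.0 ± 6.35 and 11.5 ± 4.14 FPKM (SD, n = 3 each) and in edgeR passed only with the block (log2 fold change -0.47, adjusted p = 0.51 without and 0.00699 with it).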

How the data were processed

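RNA-seq (poly(A) RNA, paired-end) of 3 siCtrl and 3 siNUF2 libraries of 8505C cells at 24 h was analysed. Per the labels, the authors' processing used fastp, HISAT2 and StringTie with GRCh38; versions, annotation release and strand setting are not given in the sources used here. The authors deposited whole-number counts per gene, without normalization, and FPKM, scaled by length and library size. All per-sample columns were used.

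Genes with a mean of at least 1 FPKM over the 6 libraries (11725 genes) were tested on the counts with edgeR 4.0.16 (R 4.3.3), TMM scaling and the quasi-likelihood F-test without a block, with Benjamini-Hochberg adjustment over all genes tested and a threshold of 0.05. Standard errors are the size of the log2 fold change over the square root of F. Alternatives were DESeq2 1.42.0, its size factors in edgeR, limma 3.58.1 on log2(FPKM + 1) and log2(FPKM + 0.1), no FPKM filter, a mean of at least 5 FPKM, the replicate number as a block, and each library left out. Every alternative other than the replicate block was fitted without a block, so a fit with a library left out also breaks a pair of the same number. Code was tested on simulated data. For a single gene, the smallest two-sided p that exact permutation of 3 and 3 libraries allows is 0.1.

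To check whether numbers pair the libraries, each library's deviation from its group mean was correlated with those of the other group over 11725 genes. The correlation was 0.421, 0.328 and 0.438 for the same number and -0.269 to -0.140 for others. Every same-number pair was above 0.1, and the numbers were therefore taken to pair the libraries. These deviations also sum to 0 within a group, so the correlations are a description and not a test of pairing. The labels do not say what a number shares.

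Substrate classes were assigned by hand from family knowledge. The members and lists were chosen with earlier results of these data known. Genes named are those called without the block, the most abundant and the most changed of each class, the 5 higher and 5 lower with the smallest adjusted p among those called only with the block, and those nearest the FPKM minimum. Other SLC genes in the text (such as SLC7A5, SLC16A1 and the rest of those called with the block) were added after their values were seen. All 140 genes overlapped the gene of the same identifier, on the same chromosome and strand, in GENCODE release 44. Coordinates of genes are the deposited ones, and sites come from GENCODE. Some items are not reported here.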

Additional observations from a re-analysis of the deposited data

How the results depend on the processing

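Of the 140 SLC genes, 7 were called (1 higher, 6 lower). The number was 14 with DESeq2 (2 higher, 12 lower), 28 with the replicate block (11 higher, 17 lower), 3 of the 80 genes left at a mean of at least 5 FPKM (0 higher, 3 lower; 5.2% of all genes) and 2 with no FPKM filter (1 lower; 0.57% of the 32985 genes that then share the adjustment), where SLC7A2 and SLC25A24 kept their calls. It was 2 to 5 with each library left out in turn (1 higher in every fit, 1 to 4 lower; 1.06% to 2.14% of all genes). The pairing of the libraries by number therefore moved the count most, and beyond the calls it added to the 7 it changed no other. Limma gave 6 with either pseudocount (3.27% of all genes) and DESeq2's size factors in edgeR gave 7. The median log2 fold change of -0.03 went from -0.05 to 0.01 with libraries left out. Of the 32 genes named by rule, 2 changed sign, both far from the threshold: SLC52A2 (0.04; -0.18 to 0.20 with libraries left out, below 0 without siCtrl library 2, -0.07 without siNUF2 library 1 and -0.04 without siNUF2 library 3) and SLC7A6OS (0.36; -0.012 without siNUF2 library 3, up to 1.00 without siCtrl library 3). With a library left out, arms of 2 libraries remain, and 133 of the 140 genes were already short of the threshold. At least 700 counts per library stood behind each of the 7 genes called.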
